A study of Mus musculus with 6 samples.

Results

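The nuclear genes of respiratory complexes II to V were followed in a mouse microglial line with and without PGC-1α overexpression. Members were the genes whose RefSeq symbol begins with Uqc, Atp5 or Cox and a digit, together with Sdha, Sdhb, Sdhc, Sdhd, Cyc1 and Cycs, provided that the accession of an array probe led to them. The rule used no measured value, but the members were chosen with earlier results of these data known. It found 60 of the 23462 genes that probes could be matched to, on 83 of 56605 probes. Complex II had 4 genes, complex III 12, cytochrome c 1, complex IV 26 and complex V 17. No probe was matched to Cox5b or to any mitochondrially encoded subunit.

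BV2 is an immortalized mouse microglial line. Total RNA was measured on 6 Agilent 1-colour arrays, all of LPS-treated BV2 cells, where LPS is a bacterial lipopolysaccharide that activates microglia. The labels put 3 of them in a group without PGC-1α overexpression, called control here, and 3 in a group with PGC-1α overexpression. According to the culture methods of the study, overexpression came from a lentiviral vector with a ubiquitin promoter that also encodes EGFP and puromycin resistance, a negative control virus was used, and overexpressing cells were selected with puromycin. For a separate experiment on oxygen and glucose deprivation, the methods describe puromycin after infection with the control virus as well. For the arrayed cells neither source says whether the controls were selected, how many separate infections were made, or whether the 3 samples of a group were separate cultures, so every p-value below measures only the spread between these samples, which may be technical. No array of cells without LPS was analysed here.

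Complex II, succinate dehydrogenase, passes electrons from succinate to ubiquinone. Complex III, the cytochrome bc1 complex, hands them to the mobile carrier cytochrome c, complex IV (cytochrome c oxidase) transfers them to oxygen, and complex V, the ATP synthase, uses the proton gradient to make ATP. PGC-1α is a transcriptional coactivator known for raising nuclear respiratory genes through partners such as NRF1, GABP and the estrogen-related receptors, best described in muscle, heart and brown fat.

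Some features of the arrays as a whole touch everything that follows. The 75th percentile of scanner intensity lay between 1617 and 1893 in the control group, against 856 to 1268 with overexpression, so the values of each array were set relative to its own 75th percentile. On that scale the median gene of the 17062 tested had a log2 fold change of 0.23, and it was 0.03 after quantile normalization, which forces the arrays to share 1 distribution. The groups also differed in RNA classes outside the pathway. In the overexpression arrays 37 of 42 replication-dependent histone genes and 22 of 23 small RNA genes were called higher, against 36.9% of all genes. After quantile normalization 24 and 21 were, against 21.7% of all genes. Of the 8 microglia and macrophage markers 7 were well above background on all 6 arrays, whereas Cx3cr1 was not well above background on any. Relative to the 75th percentile 5 of these 7 were called higher, against 36.9% of all genes. After quantile normalization none was, against 21.7%. Ptprc (-0.33) and Aif1 (-0.0050) were not higher. Itgam, Cd68 and Tyrobp were the brightest of them and weigh most in a sum. The summed level of the list, as a multiple of the 75th percentile, was 78.6 to 82.2 on control arrays and 116 to 139 on overexpression arrays. The summed levels of 4 neuron markers (24.2 to 29.7 against 36.5 to 49.8) and of 4 astrocyte markers (0.245 to 0.291 against 0.421 to 0.537) were higher too, and those of 4 oligodendrocyte markers were 1.01 to 1.12 against 1.12 to 1.25. The neuron sum came almost entirely from Snap25, which differed by 0.71 relative to the 75th percentile and by 0.11 after quantile normalization, while Tubb3 of the same list fell by 0.63 (limma adjusted p = 0.00454). The part of any of these differences in the results below was not tested. Ppargc1a, the gene of PGC-1α itself, was dim. One of its probes read -6.21, -6.37 and -7.71 in the control group, against -5.70, -5.28 and -5.90 with overexpression, and the other overlapped between groups. Each probe was well above background on at most 2 arrays of a group, neither was tested, and whether they lie within the cloned fragment was not determined.

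Most genes of complexes II to V were higher in the overexpression arrays relative to the 75th percentile. Of the 60 members 50 could be tested, and 39 of them rose and 2 fell at an adjusted p under 0.05 (limma, Benjamini-Hochberg over all genes tested), where 36.9% of all genes were called higher and 19.6% lower. Their median log2 fold change was 0.57, which is 0.34 above that of all genes. Quantile normalization changed this picture. After it 4 members were called higher and 3 lower, where 21.7% of all genes were called higher and 20.9% lower, and the members' median stood 0.02 above that of all genes. Without adjustment, 43 members had p under 0.05 in the limma fit relative to the 75th percentile and 9 after quantile normalization. The share of all genes at that unadjusted cutoff is not given here, so these counts cannot be read as particular to the members. When the overexpression arrays were shifted so that the median gene did not change, a setting added after the data were seen, 19 members were called higher and 3 lower, against 19.4% and 26.9% of all genes. The number of members called higher therefore depended on the scaling. In bulk RNA, more transcripts of a gene per cell and a larger share of an otherwise smaller RNA pool cannot be told apart.

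**Figure D1:**
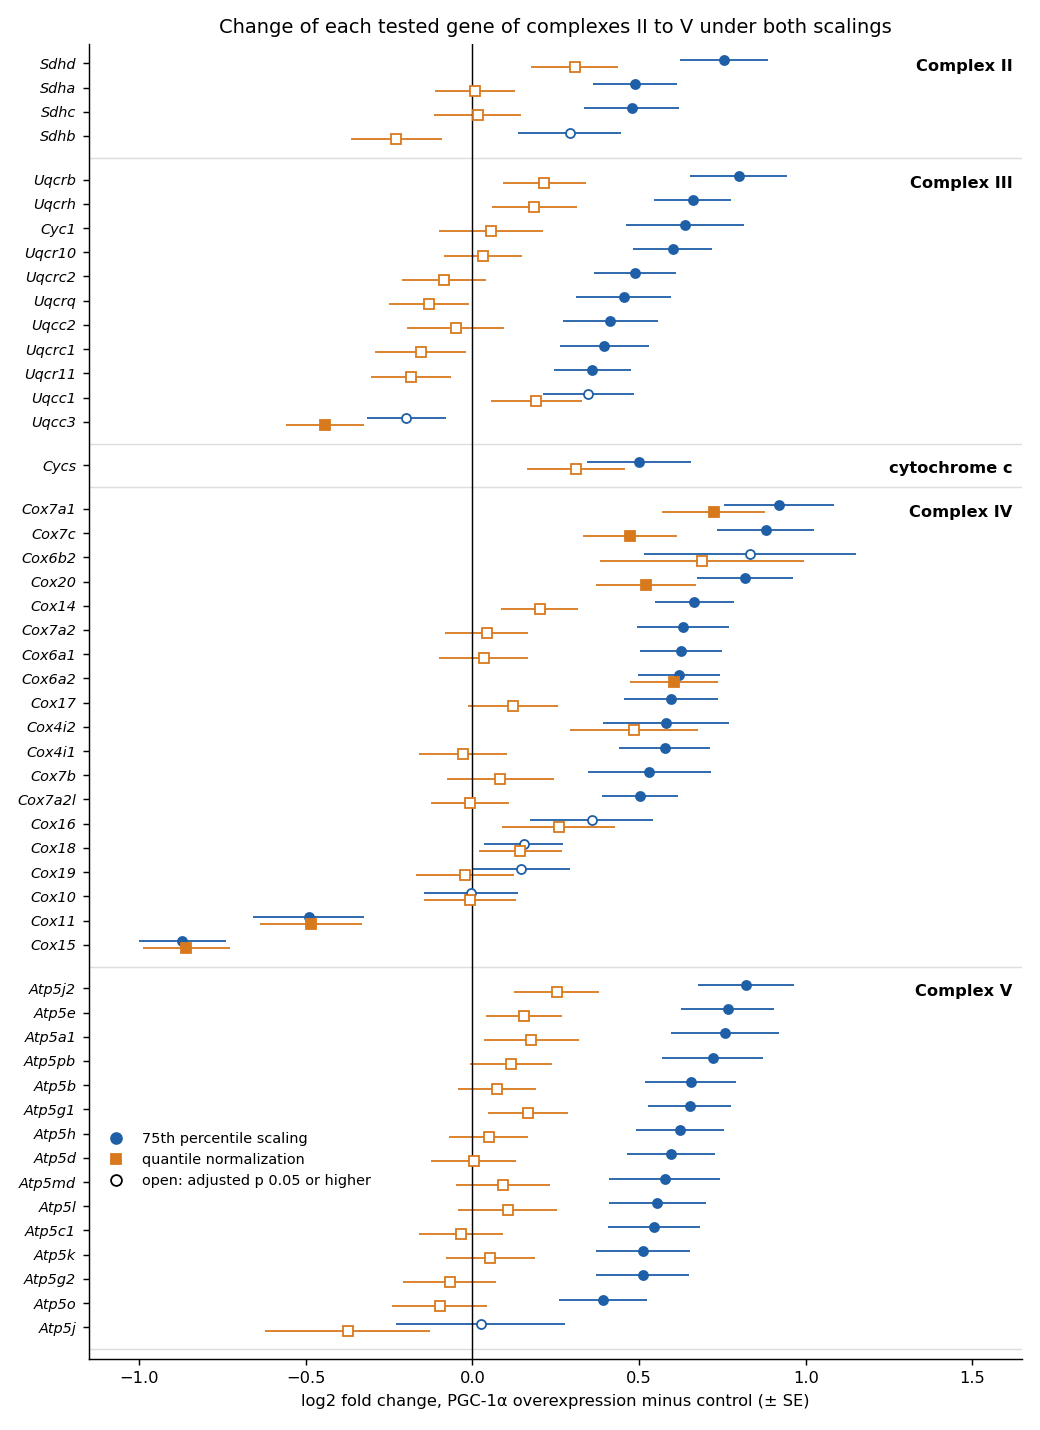
Each tested gene of complexes II to V is a row, with its log2 fold change (overexpression minus control, ± SE, 3 arrays a group) on the horizontal axis under 75th percentile scaling (circles) and quantile normalization (squares), filled where the adjusted p was under 0.05. The circles of 46 of the 50 genes and the squares of 33 lie above 0, and Cox7a1, Cox7c, Cox20, Cox6a2, Cox11 and Cox15 are filled under both.

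Of the 43 members with values on every array, 36 had all 3 overexpression arrays above all 3 control arrays and 3 had them all below, compared with 42.6% and 22.9% of all genes with complete values. After quantile normalization these counts were 12 above and 5 below, against 28.8% and 26.4% of all genes. With 3 arrays a group the smallest two-sided p of an exact permutation test is 0.1, so single genes were tested in the fit across all genes.

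Brightness moved with the result. Among the 10 equal groups of tested genes ordered by mean level, the brightest held 36 of the 50 members. In that group 71.2% of all genes were called higher and 0.176% lower, with a median log2 fold change of 0.52, and 34 of the 36 members were called higher, with a median of 0.59. After quantile normalization the same genes had a median of 0.01 and the members 0.05. The median of all genes was below 0 in the middle of the range, at -0.13 in the fifth group from the dim end, and 0.62 in the dimmest group. The part of brightness in the members' rise was not tested.

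**Figure D2:**
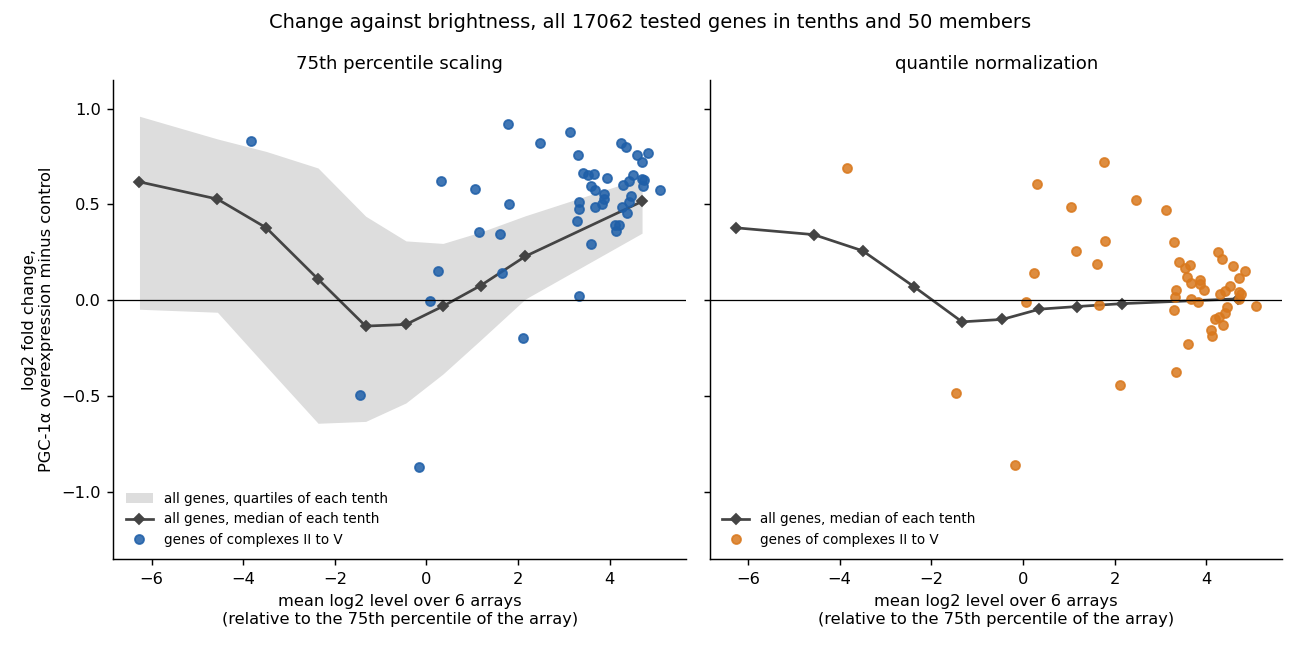
Log2 fold change (vertical axis) is plotted against mean log2 level over the 6 arrays (horizontal axis) for the 50 tested members as points, with the median of all 17062 tested genes in each of 10 brightness groups as a line and, on the left, their quartiles as a band. Relative to the 75th percentile (left) the members lie at the bright end, where the line reaches 0.52; after quantile normalization (right) both the line and most members lie near 0.

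Only 6 members were called in the same direction under both scalings, and none was called in opposite directions. Cox7a1, Cox7c, Cox20 and Cox6a2 rose, while Cox15 and Cox11 fell, all of them belonging to complex IV or to its assembly. Across all genes 21.7% were called higher and 18.7% lower under both scalings, so 4 and 2 of 50 are smaller shares than those of all genes. Cox7a1 and Cox6a2 encode isoforms known from heart and skeletal muscle, Cox7c a small structural subunit, Cox20 a chaperone for the mitochondrially encoded subunit COX2, and Cox15 and Cox11 act in heme a synthesis and in copper delivery.

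**Figure D3:**
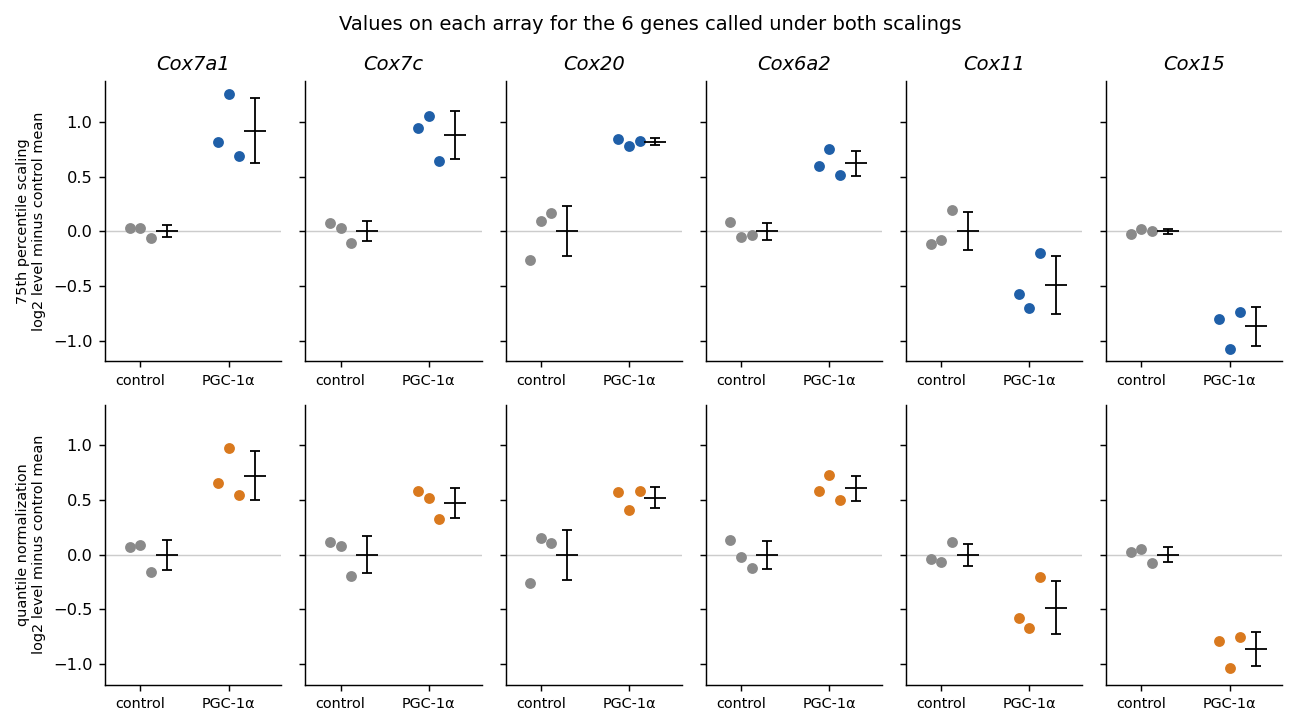
Log2 level on each array minus the mean of the control arrays (vertical axis) for the 6 genes called under both scalings, control in grey and overexpression in colour, with the mean and SD of 3 arrays beside the points, for 75th percentile scaling (top) and quantile normalization (bottom). In all 12 panels the 3 overexpression arrays lie on 1 side of the 3 control arrays.

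The promoters of some of these genes carry sequences that partners of PGC-1α are known to bind. RefSeq promoters of 300 bases, 250 before the transcription start and 50 after it (mouse build GRCm38.p6), were found for 46 of the 60 members. The motifs were searched on both strands as exact letters. A gene was counted where any promoter given for it held the motif. GCGC, any 2 bases and again GCGC, bound by NRF1, was present for 11 of the 46 members (23.9%). This compares with 7.00% of the 27025 genes with a promoter and 11.6% of the 13456 tested genes among them. CCGGAAG, bound by GABP and other ETS factors, was present in 18 (39.1%, against 9.93% and 15.9%), AAGGTCA, bound by estrogen-related receptors, in 6 (13%, against 5.38% and 4.47%), and AAGATGGCG, bound by YY1, in 3 (6.52%, against 1.64% and 2.73%). A match is a description of these letters and was not tested further. Given here are Sdhd and Atp5k, which alone among the members hold the first 3 motifs named, Uqcrc1, which holds the NRF1 motif in 2 copies, and Cox20 and Cox15, which both hold the GABP motif and moved in opposite directions. Capitals mark the matches, on either strand, and each sequence is written 5′ to 3′ on the strand of its gene.
Sdhd (chr9:50603800-50604099, minus strand): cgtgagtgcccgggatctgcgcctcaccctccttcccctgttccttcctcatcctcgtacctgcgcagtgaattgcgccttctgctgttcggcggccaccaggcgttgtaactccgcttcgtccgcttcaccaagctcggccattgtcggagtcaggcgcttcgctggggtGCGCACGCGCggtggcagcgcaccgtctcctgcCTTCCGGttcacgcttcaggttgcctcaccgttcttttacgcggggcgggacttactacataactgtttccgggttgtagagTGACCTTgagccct
Atp5k (chr5:108434350-108434649, minus strand): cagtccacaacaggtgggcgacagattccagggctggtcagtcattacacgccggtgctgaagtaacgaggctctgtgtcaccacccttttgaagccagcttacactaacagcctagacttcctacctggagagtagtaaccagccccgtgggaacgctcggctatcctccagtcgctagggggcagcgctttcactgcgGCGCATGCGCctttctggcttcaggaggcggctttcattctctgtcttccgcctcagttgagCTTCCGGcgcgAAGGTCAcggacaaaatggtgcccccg
Uqcrc1 (chr9:108936398-108936697, plus strand): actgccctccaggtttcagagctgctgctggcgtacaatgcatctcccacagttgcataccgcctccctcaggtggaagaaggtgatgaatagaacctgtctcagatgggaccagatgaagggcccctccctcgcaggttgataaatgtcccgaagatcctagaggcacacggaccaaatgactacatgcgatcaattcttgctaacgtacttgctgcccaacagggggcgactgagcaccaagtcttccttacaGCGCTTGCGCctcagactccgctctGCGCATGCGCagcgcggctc
Cox20 (chr1:178318903-178319202, plus strand): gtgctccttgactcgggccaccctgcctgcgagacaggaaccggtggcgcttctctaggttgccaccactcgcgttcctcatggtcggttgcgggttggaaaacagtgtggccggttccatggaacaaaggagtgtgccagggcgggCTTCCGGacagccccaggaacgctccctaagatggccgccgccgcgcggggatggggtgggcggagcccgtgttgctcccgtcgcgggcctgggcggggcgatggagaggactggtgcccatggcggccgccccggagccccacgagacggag
Cox15 (chr19:43752951-43753250, minus strand): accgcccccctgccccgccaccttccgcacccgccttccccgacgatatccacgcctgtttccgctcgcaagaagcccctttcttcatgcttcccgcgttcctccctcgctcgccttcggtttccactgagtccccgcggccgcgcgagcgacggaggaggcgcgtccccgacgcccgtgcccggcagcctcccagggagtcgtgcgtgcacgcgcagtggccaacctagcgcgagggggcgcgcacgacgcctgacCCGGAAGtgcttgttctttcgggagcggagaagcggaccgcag

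The tested members with an NRF1 motif had a median log2 fold change of 0.51 (10 genes) and those without one 0.58 (29 genes), or -0.01 and 0.09 after quantile normalization. For the GABP motif the medians were 0.57 (16 genes) and 0.53 (23 genes), and 0.07 and 0.03 after quantile normalization. For the estrogen-related receptor motif they were 0.56 (5 genes) and 0.54 (34 genes), and 0.11 and 0.04. For the YY1 motif they were 0.03 (3 genes) and 0.55 (36 genes), and -0.01 and 0.05. Cox7a1, which had the largest difference of all tested members, held none of these motifs. No difference between genes with and without a motif was tested.

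For each complex below, the counts compare with 36.9% of all genes called higher and 19.6% lower relative to the 75th percentile. After quantile normalization these shares were 21.7% and 20.9%. In complex II, 3 of 4 genes rose relative to the 75th percentile and none changed after quantile normalization. Sdhd, a membrane anchor that binds ubiquinone and whose promoter holds 3 of the motifs, rose most. Its log2 levels relative to the 75th percentile were 2.91, 2.97 and 2.91 in the control group, against 3.49, 3.83 and 3.74 with overexpression. The groups were well apart, with a log2 fold change of 0.76 ± 0.13 (SE, limma adjusted p = 0.00262), but after quantile normalization the difference was 0.31 ± 0.13 (limma adjusted p = 0.0891). Sdha, the flavoprotein that oxidizes succinate, read 3.47, 3.37 and 3.46 against 3.88, 4.08 and 3.80. These groups did not overlap either, and the log2 fold change was 0.49 ± 0.13 (limma adjusted p = 0.0123), compared with 0.01 ± 0.12 after quantile normalization. Its second probe, tested on its own, gave 0.54. Sdhc, the other membrane anchor, read 3.18, 3.01 and 3.07 against 3.47, 3.79 and 3.42, a log2 fold change of 0.48 ± 0.14 (limma adjusted p = 0.0215). It fell to 0.02 ± 0.13 after quantile normalization. Sdhb, the iron-sulfur subunit, had a value on 5 arrays, 3.45, 3.38 and 3.62 against 3.67 and 3.89, since 1 overexpression spot was marked as an outlier. Its 0.29 ± 0.15 did not pass the test (limma adjusted p = 0.142), and its sign turned after quantile normalization, to -0.23 ± 0.14 (limma adjusted p = 0.217).

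Complex III had 11 tested genes, of which 9 rose relative to the 75th percentile and none after quantile normalization, when 1 fell. Its median stood 0.23 above that of all genes, the smallest of the 4 complexes, and 0.08 below it after quantile normalization. Cyc1, the heme protein that reduces cytochrome c, read 3.74, 3.57 and 3.77 in the control group, against 4.11 and 4.55 with overexpression with a value. The difference of 0.64 ± 0.18 passed the test (limma adjusted p = 0.0195) and was 0.06 ± 0.16 after quantile normalization. Without 1 of the arrays in turn its adjusted p reached 0.0831, and it passed in 4 of the 6 such fits. Uqcrc1 and Uqcrc2 are the large core proteins that face the matrix. Uqcrc1 read 4.0, 3.89 and 3.85 against 4.20, 4.51 and 4.22, with a log2 fold change of 0.40 ± 0.13 (limma adjusted p = 0.035), and passed in only 1 of the 6 fits without an array (highest limma adjusted p = 0.0991). Uqcrc2 read 4.04, 4.06 and 4.0 against 4.44, 4.67 and 4.44 and differed by 0.49 ± 0.12 (limma adjusted p = 0.0112). Both turned below 0 after quantile normalization, to -0.15 ± 0.14 and -0.08 ± 0.13, and neither passed there.

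The 5 supernumerary subunits of complex III, small proteins around the catalytic core, rose relative to the 75th percentile by 0.36 to 0.80. Uqcrb, which binds close to the ubiquinone site, read 3.75, 3.97 and 4.14 against 4.60, 4.82 and 4.84, a difference of 0.80 ± 0.15 (limma adjusted p = 0.00309). Uqcrh, the hinge protein between cytochromes c1 and c, read 3.31, 3.35 and 3.30 against 4.02, 4.03 and 3.88, a difference of 0.66 ± 0.12 (limma adjusted p = 0.00267). Neither gene overlapped between groups, and both were positive but not called after quantile normalization, at 0.22 ± 0.12 and 0.19 ± 0.13. The Rieske iron-sulfur protein Uqcrfs1 was not tested, because its spot was marked as an outlier on 2 arrays. With those spots kept it read 1.76, 1.56 and 2.17 against 2.05, 1.91 and 2.27, groups that overlap, with a difference of 0.25 (limma adjusted p = 0.275). Among the assembly factors, Uqcc2 rose (0.41 ± 0.14, limma adjusted p = 0.0379), Uqcc1 was at 0.35 ± 0.14 (limma adjusted p = 0.0588), and Uqcc3, a stabilizer of cytochrome b, went the other way. Uqcc3 read 2.21, 2.21 and 2.21 in the control group, against 1.92, 2.13 and 1.99 with overexpression. All 3 overexpression values were lower, and the difference of -0.20 ± 0.12 (limma adjusted p = 0.181) became -0.44 ± 0.12 after quantile normalization (limma adjusted p = 0.0179).

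Cytochrome c, which carries electrons from complex III to complex IV, gave an answer that depended on the probe. The tested probe of Cycs read 1.29, 1.54 and 1.81 in the control group, against 2.15, 1.98 and 2.01 with overexpression, so the groups did not overlap, and the difference was 0.50 ± 0.16 (limma adjusted p = 0.0257). It was 0.65 on the slide that held replicates 1 and 2 and 0.21 on the slide that held replicate 3, and it passed in 3 of the 6 fits without an array. A brighter probe was left out because its spot was marked as an outlier on 2 arrays. With such spots kept this probe stood for the gene and read 3.52, 3.53 and 3.57 against 3.65, 3.76 and 3.78, a difference of 0.19 (limma adjusted p = 0.188), or -0.33 after quantile normalization (limma adjusted p = 0.0387). The direction of Cycs is therefore uncertain.

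Complex IV held the widest range of changes, from -0.87 to 0.92. Of its 19 tested genes 12 rose and 2 fell relative to the 75th percentile, and 4 rose and 2 fell after quantile normalization. The 4 of 19 is near the 21.7% of all genes called higher after quantile normalization, and the 2 of 19 is below the 20.9% called lower. The 5 tested structural subunits of the common enzyme all rose, by 0.53 to 0.88. Cox4i1, the ubiquitous form of the subunit that senses ATP, read 4.82, 4.91 and 4.71 against 5.25, 5.58 and 5.33, a difference of 0.58 ± 0.14 (limma adjusted p = 0.00859) that became -0.03 ± 0.13 after quantile normalization. Cox6a1 and Cox7a2 behaved alike in this respect, at 0.63 ± 0.12 and 0.63 ± 0.14 against 0.03 ± 0.13 and 0.04 ± 0.12. Cox7c was the exception. It read 2.76, 2.72 and 2.58 in the control group, against 3.63, 3.74 and 3.33 with overexpression, without overlap. The log2 fold change of 0.88 ± 0.15 (limma adjusted p = 0.00213) remained at 0.47 ± 0.14 after quantile normalization (limma adjusted p = 0.0278), although it passed in 2 of 6 quantile-normalized fits without an array. Its second, dimmer probe gave 0.46 ± 0.22 and did not pass (limma adjusted p = 0.119).

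Bright subunits of complex IV were lost to spots marked as outliers. Cox5a, Cox6b1, Cox6c and Cox8a were well above background on all arrays, but too few spots remained for the test. With the outlier spots kept, 57 members could be tested, of which 41 rose and 2 fell (37% and 19.4% of all 17305 genes then tested). Cox5a then read 3.73, 3.53 and 3.53 against 3.96, 4.44 and 3.94, a difference of 0.52 (limma adjusted p = 0.0279), and Cox6b1 differed by 0.53 (limma adjusted p = 0.0241). Cox6c (0.37) and Cox8a (0.48) did not pass, with limma adjusted p-values of 0.0658 and 0.0611. After quantile normalization with these spots kept, 4 members were higher and 4 lower, against 22.8% and 22.2% of all genes. None of these 4 subunits was called there.

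Tissue-restricted isoforms of complex IV replace the common subunits in particular tissues. Of 7 on the array, 4 were well above background, and Cox7b2, Cox8b and Cox8c were not well above background on any array. Cox7a1, known from heart and skeletal muscle, read 1.35, 1.35 and 1.26 against 2.14, 2.58 and 2.01. Its difference was the largest of all tested members, 0.92 ± 0.16 (1.89-fold, limma adjusted p = 0.0029), and 0.72 ± 0.15 after quantile normalization (limma adjusted p = 0.00696). Cox6a2, the muscle form of subunit 6a, read 0.09, -0.05 and -0.03 against 0.60, 0.75 and 0.52, a difference of 0.62 ± 0.12 (limma adjusted p = 0.00443) that kept its size after quantile normalization, 0.61 ± 0.13 (limma adjusted p = 0.0077). Both genes were called in all 12 fits without an array. Cox4i2, a form known from lung and from cells short of oxygen, read 0.78, 0.93 and 0.58 against 1.35, 1.68 and 1.01. Its groups did not overlap, and 0.58 ± 0.19 passed (limma adjusted p = 0.0302) where 0.48 ± 0.19 after quantile normalization did not (limma adjusted p = 0.074). Without 1 array it passed in 2 of 6 fits. Cox6b2, the testis form, was dim and variable (0.83 ± 0.32, limma adjusted p = 0.0533).

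Because each of these isoforms has a common counterpart on the same arrays, their ratio within an array could be compared between groups, for 3 pairs chosen after the values were seen. The log2 ratio of Cox7a1 to Cox7a2 was higher on all 3 overexpression arrays, by 0.29 ± 0.08 (SE) relative to the 75th percentile and by 0.68 ± 0.08 after quantile normalization. The exact permutation test gave p = 0.1 under both, the smallest it can give, or 0.3 and 0.1 adjusted over the 3 pairs. The ratio of Cox6a2 to Cox6a1 differed by -0.0054 ± 0.054 relative to the 75th percentile (exact permutation p = 1) and by 0.57 ± 0.09 after quantile normalization (exact permutation p = 0.1). That of Cox4i2 to Cox4i1 differed by 0.0037 ± 0.15 (exact permutation p = 1) and by 0.51 ± 0.16 (exact permutation p = 0.1). The ratios of Cox6a2 and Cox4i2 to their counterparts thus depended on the scaling, and no difference of a ratio passed a threshold of 0.05, which 3 arrays a group cannot reach.

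The genes that build complex IV did not move together. Under 75th percentile scaling Cox20, Cox14 and Cox17 rose, Cox15 and Cox11 fell, and Cox10, Cox16, Cox18 and Cox19 did not pass. Cox15, which converts heme o to heme a, fell most. It read 0.24, 0.28 and 0.27 in the control group, against -0.54, -0.81 and -0.47 with overexpression, a log2 fold change of -0.87 ± 0.13 (limma adjusted p = 0.00149), and -0.86 ± 0.13 after quantile normalization (limma adjusted p = 0.00168). It was called in all 12 fits without an array. A dimmer probe of Cox15 gave 0.10 ± 0.16 (limma adjusted p = 0.604), so the fall rests on 1 of its 2 probes. Cox10, which makes heme o in the preceding step, was at -0.0044 ± 0.14 by its brighter probe and at -0.63 ± 0.15 by the other (limma adjusted p = 0.00837, every probe tested on its own). Cox11, which delivers copper to the active site, read -1.33, -1.28 and -1.01 against -1.79, -1.91 and -1.41. Its groups did not overlap, and -0.49 ± 0.17 passed (limma adjusted p = 0.0358), as did -0.48 ± 0.15 after quantile normalization (limma adjusted p = 0.0347), but only 1 of 6 fits without an array called it under either scaling. Cox20 read 1.81, 2.16 and 2.24 against 2.91, 2.85 and 2.90, and its 0.82 ± 0.14 (limma adjusted p = 0.00277) was 0.52 ± 0.15 after quantile normalization (limma adjusted p = 0.0235). It passed in 3 of 6 quantile-normalized fits without an array. Cox17, a copper chaperone, and Cox14, which acts with the mitochondrially encoded subunit COX1, differed by 0.60 ± 0.14 and 0.67 ± 0.12 and were not called after quantile normalization (0.12 and 0.20).

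Over the 12 assembly factors of complexes III and IV together, 4 rose and 2 fell relative to the 75th percentile, shares near the 36.9% and 19.6% of all genes, and their median stood 0.02 above that of all genes. Of the structural subunits, 32 of the 34 tested in complexes II to V, cytochrome c included, rose and none fell, with a median 0.35 above that of all genes, and this was 0.01 after quantile normalization, when 1 rose. The difference between the 2 kinds of gene was not tested. The structural subunits were also among the brightest genes.

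Complex V had the largest share of genes called higher relative to the 75th percentile. Of 15 tested genes 14 rose on that scale and none was called after quantile normalization, with medians of 0.37 and 0.04 above that of all genes. The 5 subunits of the F1 head, where ATP is made, differed by 0.54 to 0.77. The catalytic subunit beta, Atp5b, read 4.04, 4.13 and 4.39 against 4.76, 4.93 and 4.84, a difference of 0.65 ± 0.14 (limma adjusted p = 0.00531). Subunit alpha, Atp5a1, with a value on 5 arrays, read 4.10 and 4.17 against 4.68, 5.06 and 4.93, a difference of 0.76 ± 0.16 (limma adjusted p = 0.0073). Neither overlapped between groups on the arrays with a value, and after quantile normalization they were at 0.07 ± 0.12 and 0.18 ± 0.14. Atp5e, the small epsilon subunit of the central stalk, read 4.42, 4.42 and 4.55 against 5.03, 5.43 and 5.23 (0.77 ± 0.14, limma adjusted p = 0.0032).

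In the membrane part of complex V, Atp5j2, subunit f, showed the largest difference of the complex. It read 3.74, 3.95 and 3.85 in the control group, against 4.50, 4.89 and 4.60 with overexpression, 0.82 ± 0.14 apart (limma adjusted p = 0.00264), and 0.25 ± 0.13 after quantile normalization (limma adjusted p = 0.144). Atp5k, subunit e, whose promoter holds all 3 motifs, differed by 0.51 ± 0.14 (limma adjusted p = 0.0164), and by 0.05 ± 0.13 after quantile normalization. The proton-carrying c-ring is encoded by several genes for the same mature protein, of which Atp5g1 (0.65 ± 0.12) and Atp5g2 (0.51 ± 0.14) rose. Atp5g3 was not tested, and with outlier spots kept it differed by 0.03 (limma adjusted p = 0.914). Of the 4 tested subunits of the peripheral stalk, which holds the head still, Atp5pb, Atp5h and Atp5o rose by 0.39 to 0.72, and Atp5j was at 0.03 ± 0.25 with a value on 5 arrays (limma adjusted p = 0.94).

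The arrays came from 2 slides, with replicates 1 and 2 of both groups on 1 slide and replicate 3 of both on the other. Relative to all genes, the median difference of the members was 0.39 within the first slide and 0.25 within the second. After quantile normalization it was 0.031 and 0.0033. Relative to the 75th percentile 47 of 50 members differed upwards on the first slide and 42 of 48 on the second, which held 1 array a group. The median of all genes was above 0 there as well, at 0.24 and 0.19, and the share of all genes that differed upwards is not given here. On that scale the median of each complex was above that of all genes within both slides, by 0.15 to 0.43. After quantile normalization only complex IV was above it on both (0.067 and 0.041). Complex V stood at 0.068 on the first slide and -0.023 on the second, and complexes II (-0.017 and -0.020) and III (-0.12 and -0.020) were below it on both.

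**Figure D4:**
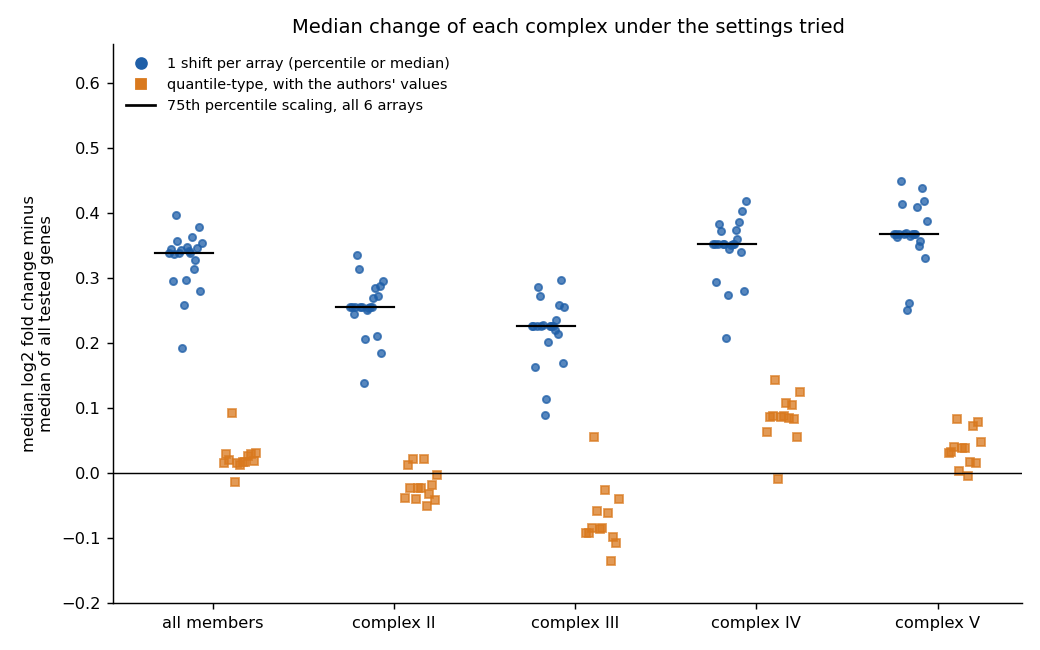
Each point is the median log2 fold change of the members or of 1 complex minus the median of all tested genes (vertical axis) under 1 setting, with circles for settings that move each array by 1 value and squares for quantile-type settings and the authors' values. For all members the circles lie between 0.19 and 0.40 and the squares between -0.01 and 0.09. A change of the shift alone moves members and all genes alike, so it can hardly move a circle.

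The subunits of complex I, which passes electrons from NADH to ubiquinone, had 26 of 35 called higher and none lower relative to the 75th percentile. The shares of all genes were 36.9% and 19.6%, and in the brightest of the 10 groups 71.2% were called higher. The median of these subunits was 0.24 above that of all genes. After quantile normalization 1 was called higher and none lower, against 21.7% and 20.9% of all genes. Of 26 tested assembly factors with other symbols, 9 rose and 5 fell, again near the shares of all genes, and 1 rose and 5 fell after quantile normalization, below the 21.7% and near the 20.9% of all genes. Pet117, an assembly factor of complex IV, rose most (1.14, limma adjusted p = 0.000339), and Tmem177, which binds COX20, fell most (-1.97, limma adjusted p = 4.22e-05). Both kept their direction and call after quantile normalization, at 1.14 and -1.99.

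Of 15 transcription factors and coactivators of respiratory genes 13 were tested. Of these 2 rose and 5 fell relative to the 75th percentile, where 36.9% of all genes were called higher and 19.6% lower. Gabpa, the DNA-binding subunit of GABP, rose by 0.73 (limma adjusted p = 0.00196), and Esrra, the estrogen-related receptor alpha, by 0.46 (limma adjusted p = 0.0171). Esrrg (-1.29), the PGC-1 relatives Ppargc1b (-0.86) and Pprc1 (-0.74), Tfam (-0.52), which packages and transcribes mitochondrial DNA, and the mitochondrial RNA polymerase Polrmt (-0.38) fell. After quantile normalization Gabpa stayed higher (0.69), Esrra (0.21) and Polrmt (-0.37) no longer passed, and the other 4 stayed lower. The shares of all genes were then 21.7% higher and 20.9% lower. With outlier spots kept, 3 factors rose and 5 fell relative to the 75th percentile, and 2 rose and 5 fell after quantile normalization. Nrf1 (0.32), Gabpb1 (0.19), Yy1 (0.06), Sp1 (-0.05), Tfb1m (-0.27) and Tfb2m (-0.26) did not pass under either scaling, and Esrrb was not tested.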

How the data were processed

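RNA of LPS-treated BV2 cells was measured on 6 Agilent arrays, 3 control and 3 labelled PGC-1α overexpression. The green-channel intensity of each spot was deposited as the authors' scanner software, Feature Extraction 11.5.1.1, gave it after background subtraction and spatial detrending. A table of log2 values that the authors normalized in GeneSpring, by a procedure not given in the sources used here, was deposited too and served as an alternative. The sources name different dyes for the labelling.

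Intensities were put on the log2 scale, and each array was set relative to the 75th percentile of its 59305 spots other than controls. Spots marked as outliers (149 to 1590 an array) were left out and spots of a probe averaged. Accessions were matched to RefSeq mouse genes, for 33767 of 56605 probes. A probe was kept for the test where at least 2 arrays a group gave a value and, in 1 group or both, a signal well above background throughout. Each gene was represented by its brightest such probe. Overexpression was set against control in a two-sided moderated fit (limma 3.58.1, functions lmFit and eBayes, R 4.3.3). P-values were adjusted by Benjamini and Hochberg's method over 17062 genes, and the threshold was 0.05. The steps were tested on simulated data. Tables and plots were made with Python 3.11.15, numpy 2.4.6, pandas 2.3.3 and matplotlib 3.10.9. Precision is limited by the number of arrays.

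The members and gene lists were chosen with earlier results of these data known. Values on each array are given for Sdha to Sdhd, Cyc1, Uqcrfs1, Uqcrc1, Uqcrc2, Cycs, Cox4i1, Cox4i2, Cox5a, the F1 subunits alpha and beta, every member called lower under either scaling, and the members with the 2 largest positive and the 2 largest negative log2 fold changes of each complex. From other lists the genes with the largest change in each direction and all transcription factors are named. Alternatives covered the normalization, background correction, filter, choice of probe, slide, variance model, array weights, the authors' values and each array left out. The settings that kept outlier spots, centred on the median gene, set the median change to 0 or took every probe after quantile normalization were added after the data were seen.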

Additional observations from a re-analysis of the deposited data

How the results depend on the processing

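Results were recomputed under each alternative, changing 1 choice at a time except where quantile normalization was combined with a second choice. The medians have no value under a required size of change, and the single genes were not recomputed where every probe was tested on its own, nor Atp5a1 and Cyc1 where a signal well above background was required on all 6 arrays. Relative to all genes, the median of the members stayed above 0 under all 21 settings that move each array by 1 value (0.19 to 0.40). It lay between -0.01 and 0.09 under the 13 quantile-type settings. The authors' values are counted among these, although the procedure behind them is not given, so they are not known to be quantile-normalized. A shift of a whole array moves members and all genes alike. Settings that changed only this shift could therefore hardly change the median (0.34 in each) and do not test it. For the 23 named members, of 734 values under an alternative 461 kept their direction and side of the threshold, 200 kept the direction without passing, 13 passed in addition and 60 turned sign, and the cause was not tested. Quantile normalization left 4 members higher and gave medians relative to all genes of 0.021 (all members), -0.022 (complex II), -0.084 (complex III), 0.088 (complex IV) and 0.040 (complex V), and Cox4i1 (-0.028), Sdhb (-0.23), Uqcrc1 (-0.15) and Uqcrc2 (-0.085) turned sign. With the slide as a block in addition, 6 members were higher, the medians in the same order were 0.013, -0.023, -0.085, 0.087 and 0.039, and the values were negative for Cox4i1 (-0.028), Sdhb (-0.22), Uqcrc1 (-0.15) and Uqcrc2 (-0.085). The authors' log2 values gave 4 members higher, medians of 0.015, -0.039, -0.093, 0.063 and 0.030, and negative values for Cox4i1 (-0.056), Sdha (-0.020), Sdhb (-0.17), Sdhc (-0.0050), Uqcrc1 (-0.19) and Uqcrc2 (-0.11). Background correction by normexp followed by quantile normalization gave 6359 genes changed, 5 members higher, medians of 0.030, 0.012, -0.092, 0.086 and 0.032, and negative values for Atp5b (-0.0055), Sdhb (-0.22), Sdhc (-0.0020), Uqcrc1 (-0.18) and Uqcrc2 (-0.13). Normexp with the 75th percentile gave a median of 0.11 for complex III. Every probe on its own after quantile normalization gave 4 higher, 4 lower and medians of 0.093, 0.021, 0.055, 0.14 and 0.083. Outlier spots kept with quantile normalization gave 4 higher, 4 lower, medians of -0.014, -0.040, -0.059, -0.0096 and 0.0032, and negative values for Cox4i1 (-0.049), Cycs (-0.33), Sdha (-0.022), Sdhb (-0.17), Sdhc (-0.0053), Uqcrc1 (-0.19) and Uqcrc2 (-0.11). Requiring a change of at least 1 on the log2 scale left 2430 genes and 0 members in either direction. No filter left 1 member lower and medians of 0.19 for all members and 0.089 for complex III, and centring on the median of the genes tested left 1 member lower. Setting the median change of all genes to 0 left 19 members higher.

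With each array left out in turn, relative to the 75th percentile, 7417 to 9671 genes changed, 28 to 37 members were higher and 1 or 2 lower, and the medians relative to all genes were 0.28 to 0.38 (all members), 0.18 to 0.30 (complex II), 0.17 to 0.30 (complex III), 0.28 to 0.42 (complex IV) and 0.33 to 0.44 (complex V). After quantile normalization the ranges were 5371 to 7243 genes, 2 to 5 higher, 1 to 3 lower, and medians of 0.016 to 0.030, -0.051 to 0.021, -0.13 to -0.026, 0.056 to 0.12 and -0.0054 to 0.079. Over both, Cox4i1 ranged from -0.13 to 0.64, Cyc1 from -0.042 to 0.86, Sdha from -0.039 to 0.55, Sdhb from -0.26 to 0.40, Sdhc from -0.041 to 0.55, Uqcrc1 from -0.26 to 0.45 and Uqcrc2 from -0.17 to 0.53. The deviations of arrays with the same replicate number correlated at -0.16, 0.07 and 0.60 across genes, so the numbers were not taken to pair the samples. With the replicate block 10562 genes changed and 39 members were higher and 2 lower, as without it. Quantile normalization with the replicate block gave 6 members higher, medians of 0.016, -0.024, -0.086, 0.087 and 0.038, and negative values for Cox4i1 (-0.028), Sdhb (-0.22), Uqcrc1 (-0.15) and Uqcrc2 (-0.085). Not every array correlated best with its own number. Precision was limited by 3 arrays a group, and Cox6b2 was dim.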
